A study of Macaca mulatta with 11 samples.

Results

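Almost fully methylated regions of the macaque prefrontal cortex are described here: short runs of CpG positions at which over 95% of all reads were methylated. Positions at most 200 bp apart were joined, runs were split every 1000 bp, and regions with 5 to 39 positions and a pooled level over 95% were kept. The pooled level is the sum of methylated reads over all reads of the 11 animals. The rule found 3260 regions, 2.73% of the 119471 regions of that size, and they held 33629 of 3115109 measured positions. A further 172 regions over 95% had 40 or more positions and were not kept.

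The libraries came from area 46 of the dorsolateral prefrontal cortex of 11 rhesus macaques (Macaca mulatta), 2 of cohort 10 and 9 of cohort 14. All 11 animals were naïve to ethanol when the tissue was taken, so no group had been treated. Each animal's label carries an age, from 5.02 to 5.44, and an ethanol value for 6 months, from 1.69 to 4.31, called intake here; no unit is stated for either. DNA was bisulfite-converted and enriched with probes of a human capture kit, so the regions are those that human probes caught in macaque DNA. The tissue holds neurons and glia together, and no measurement separated them. Positions are given as deposited; the genome build is not given in the sources used here, and no gene, exon or repeat annotation was used.

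DNA methylation at CpG sites is written by the DNMT3 enzymes and copied to new strands by DNMT1, while TET enzymes oxidise it and open the way to its removal. Most CpGs outside CpG islands carry it in mammalian tissue, gene bodies included, and dense CpG islands at promoters usually lack it. Bisulfite treatment turns unmethylated cytosine into uracil and spares methylated cytosine. It also spares hydroxymethylated cytosine, which is abundant in neurons, so the 2 marks are counted together in these levels.

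The pooled level of the 3260 regions ran from just over 95% to 98.2%, with a median of 95.6%. It lay between 95% and 96% in 2260 regions, between 96% and 97% in 875, between 97% and 98% in 120 and over 98% in 5. These levels chose the regions and are given as a description. The region with the highest level lay on chromosome 3 from 13000014 to 13000263 and held 11 positions. In cohort 10 it was at 98.4% and 97.5%, and in cohort 14 it ran from 95.8% in animal 6 to 98.9% in animal 7. The median of the 11 animals was 98.4%, and the cohorts overlapped. Next came 5 positions on chromosome 6 from 155284186 to 155284278 at 98.1%, 8 on chromosome 14 from 86135928 to 86136097, 5 on chromosome 15 from 64524525 to 64524619, and 5 on chromosome 7 from 122206047 to 122206291. In these 4 regions the lowest animal was at 96.3% or more and the highest at 98.9% to 99.4%. Their flanks differed: the 50 listed positions within 2000 bp of the region on chromosome 6 had a mean level of 10.7%, and those of the region on chromosome 14 had 92.9%.

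No gap in the levels set the regions apart. The 5 regions just above the limit and the 5 just below it all had pooled levels that rounded to 95%. Just above lay, for example, 12 positions on chromosome 3 from 44426072 to 44426458, with a lowest animal at 93.3% and a highest at 97.1%. Just below lay, for example, 14 positions on chromosome 18 from 20322271 to 20322522, at 91.9% and 96.5%. Over the limit of 94% there were 7173 regions and over 96% there were 1000.

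The lowest deposited counts bear on which regions passed. No methylated or unmethylated count lay under 1, as if 1 had been added to both, which no header states. With at least 1 unmethylated read at every position, a position with few reads cannot reach a level near 100%. The highest level a region could show, given its reads, had a median of 99.5% over the 3260 regions and was never under 96.9%. Among regions of 80% to 100%, those over 95% made up 4.81% of the regions in the lowest of 4 equal classes of depth (up to 107.98 reads per position and animal) and 7.15% in the highest (from 257.7). When 1 methylated and 1 unmethylated read were taken off at each position and animal, called removal of the added counts below, the order turned: 13.9% and 8.95% of the same regions lay over 95%. The number of regions over 95% was then 5733, all 3260 among them, which is over 1.5 times as many.

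The regions were small. They held a median of 8 positions over 234 bp, and 90% were between 77 and 587 bp long. Regions of 80% to 95%, 53654 in all, were weighted to the same numbers of positions for comparison and are called the comparison regions below. Their median length was 270 bp. The share of regions over 95% fell as the number of positions rose: it was 3.92% of regions with 5 or 6 positions, 2.98% with 7 to 9, 2.51% with 10 to 14, 2.21% with 15 to 19, 1.62% with 20 to 29 and 1.01% with 30 to 39. A short region is averaged over fewer positions and so scatters more around its level, and how much this adds was not tested.

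Positions lay closer together in the almost fully methylated regions than in the comparison regions. Median density was 3.90 positions per 100 bp against 3.15. The difference was present in each class of size, for example 3.10 against 2.63 with 5 or 6 positions and 5.25 against 4.18 with 30 to 39. Regions are not replicates, so no test is given for it. Median depth was also higher, 187 reads per position and animal against 167, and the part of depth in the density was not tested. The largest regions by number held 39 positions. They lay on chromosome 12 from 79113325 to 79114320, chromosome 10 from 92697834 to 92698693, chromosome 8 from 28984593 to 28985391, chromosome 7 from 128660679 to 128661359 and chromosome 19 from 14776492 to 14776883, with pooled levels of 95.2% to 95.6%. The last of them packed its 39 positions into 392 bp, 9.95 per 100 bp, and was at 93.8% in its lowest animal and 96.9% in its highest. The longest region was 27 positions on chromosome 20 from 58732380 to 58733379 at 96.4%, the longest possible at 1000 bp. It was followed by 37 positions on chromosome 4 from 57515106 to 57516104 and 31 on chromosome 12 from 49191 to 50187. Next to the last of these, the nearest listed position, 9 bp away, was still at 94.8%, while the 98 listed within 2000 bp had a mean of 8.74%.

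The shortest regions were packed with listed positions 1 bp apart, as the cytosines of both strands of a CpG are. On chromosome 5 from 54322838 to 54322850, 8 positions lay within 13 bp at a pooled level of 97.2%, with animals from 96.01% to 98.8%. On chromosome 16 from 50242907 to 50242925, 10 positions lay within 19 bp, at 89.3% in animal 4 of cohort 14 and above 93% in all others, up to 98.1%. On chromosome 9 from 27651056 to 27651073, 5 positions lay within 18 bp with no such gap. Animal 1 of cohort 10 was at 88.1% there, from 109 reads summed over the 5 positions, and the others at 94.9% to 99%. Gaps of 1 bp occurred in 236 regions, 7.24%, against 4.14% of the comparison regions. At the 1299 places with such a gap, the pooled levels of the neighbours differed by a median of 1.77 points, and both were over 90% at 1194 (91.9%). The median difference at such places in the comparison regions was 2.56 points.

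The spacing of positions was also compared, a measure the rule did not use. The median gap between neighbouring positions was 17 bp, against 22 bp in the comparison regions and 13 bp in regions under 20%. Gaps of at most 10 bp made up 35.2%, 28.1% and 43.8% of gaps in the same order. Gaps of 2 bp, as in the tetranucleotide CGCG, were 3.76% of all gaps, against 2.85% in the comparison regions and 7.42% in regions under 20%. Gaps of 3 bp (4.01%) and 6 bp (4.08%) were more frequent than those of 2, 4 or 5 bp (3.76%, 3.44% and 3.32%) or 7 bp (3.16%). In the comparison regions gaps of 3 bp (3.33%) and 6 bp (3.29%) were also above those of 2, 4, 5 and 7 bp. Over gaps of 2 to 100 bp, 36.3% were multiples of 3, against 35.1% in the comparison regions and 34.0% in regions under 20%, where gaps without preference would give 33.3%. By chromosome the share ran from 33.1% to 38.9%, and it was above that of the comparison regions on 14 of 20 chromosomes. As background, codons repeat every 3 bases in coding exons; which of these regions are exonic was not analysed here.

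Within a region, methylation was high at nearly every position. The rule chose on the same counts and kept comparison regions at 95% or less, so these values are a description. Of the 33629 positions, 99.2% had a pooled level over 80%, 92.9% over 90%, 66.1% over 95% and 9.19% over 98%. In the comparison regions the shares were 84.4%, 55.3%, 22.4% and 1.503%. In 1725 regions (52.9%) every position was over 90%, and in 255 (7.82%) the lowest position was under 80%. Only 18 positions had a pooled level under 50%. The first and last positions of a region had a mean level of 93.3% and the inner ones 95.7%, against 85.3% and 88.4% in the comparison regions. Depth fell toward the ends as well, from a median of 204 reads per position and animal inside to 108 at the ends. With the added counts removed, the means were 94.5% at the ends and 96.4% inside.

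The level in each animal stayed close to the pooled one. The mean over the 3260 regions was 95.1% and 95.5% in animals 1 and 2 of cohort 10. In animals 1 to 9 of cohort 14 it was 95.9%, 95.7%, 96.2%, 95.5%, 96.01%, 95.5%, 95.9%, 95.6% and 95.7%. Animal 1 of cohort 10 was lowest and animal 3 of cohort 14 highest, and animal 2 of cohort 10 lay within the range of cohort 14. The mean over animals was 95.7% ± 0.302 (SD, n = 11) in these regions and 88.4% ± 0.458 in the comparison regions. The same animal was highest in both sets. The lowest was animal 1 of cohort 10 here and animal 6 of cohort 14, at 87.6%, in the comparison regions. Median depth in these regions was 139 and 137 reads per position in cohort 10 and 160 to 278 in cohort 14. With the added counts removed, the mean level was 95.97% in animal 1 of cohort 10, 96.4% in animal 2 and 96.2% to 96.7% in cohort 14, so animal 1 stayed lowest and the range narrowed.

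**Figure D1:**
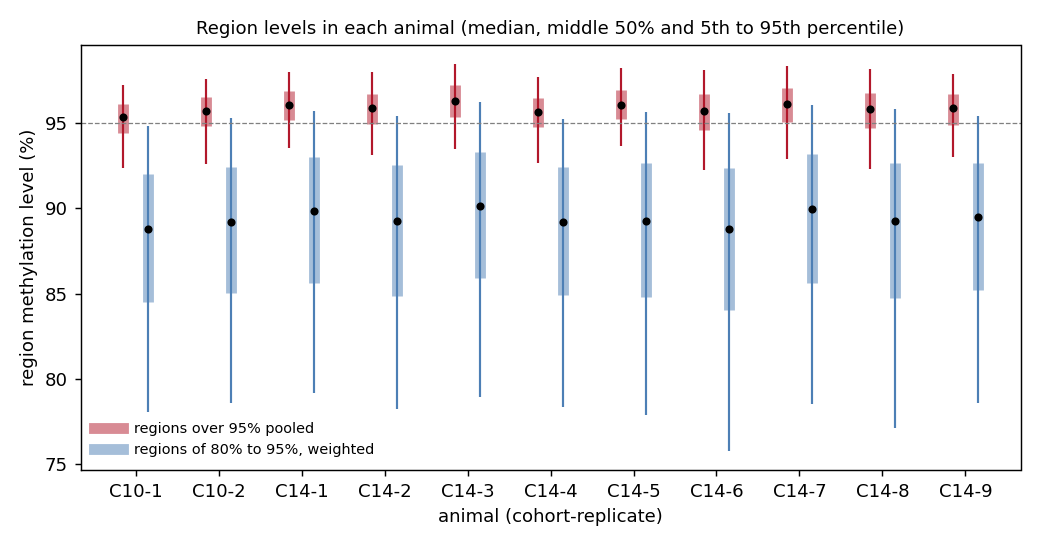
Methylation level of regions (y axis, %) in each of 11 animals (x axis, cohort and replicate), for the 3260 regions over 95% and for the comparison regions weighted to the same numbers of positions. Points are medians, thick bars the middle 50% of regions, thin lines the 5th to 95th percentile, and the dashed line marks 95%. The medians of the almost fully methylated regions lie between 95.3% and 96.3% in every animal.

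A pooled level over 95% did not mean that every animal was over 95%. Only 289 regions (8.87%) were over 95% in all 11 animals and 417 in exactly 10, and the median region was over 95% in 8. Between 59.7% of the regions, in animal 1 of cohort 10, and 80.7%, in animal 3 of cohort 14, were over 95% in a given animal. Over 90% in all 11 were 2995 regions (91.9%). Of the 260 with an animal under 90%, 237 had 1 such animal and 23 had at least 2. Those 260 were small and shallow, with a median of 6 positions and 115 reads per position and animal.

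The choice was repeated without each animal, and the level was read in the animal left out. Chosen on the other 10, 3154 to 3409 regions passed, of which 2953 to 3188 were among the 3260. The left-out animal had a median level of 95.2% to 96.1% in the regions so chosen. It was over 95% in 54.97% to 73.7% of them, over 90% in 96.5% to 98.7%, and under 80% in 2 to 6 regions. In comparison regions chosen the same way, the left-out animal was over 95% in 4.28% to 12.3% and over 90% in 40.8% to 51.2%. The ranges of the 2 sets over the 11 animals did not overlap.

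Against the comparison regions, differences between animals were smaller in percentage points and relative to independent reads, but not on the logit scale over all sizes. The SD over 11 animals had a median of 1.31 points, against 3.04 points in the comparison regions, and the median range from lowest to highest animal was 4.31 against 9.83 points. The variance was a median of 6.34 times that of independent reads, against 12.2 times. On the logit scale, the natural log of methylated over unmethylated reads, the median SD was 0.332 against 0.317. An SD in points must shrink as a level nears 100%, while the part of a logit SD that comes from read sampling grows. The median logit SD was 0.319 in regions of 95% to 96%, 0.353 at 96% to 97% and 0.425 at 97% to 98%. It was 0.372 in the 5 regions over 98%. The number of positions also fell over these classes, from a median of 8 to 5. Neither scale is free of the level, and the rule chose on the level, so no test is given for either scale.

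The logit SD also moved with size and depth. The median logit SD fell from 0.422 with 5 or 6 positions to 0.175 with 30 to 39, and in the comparison regions from 0.380 to 0.195. It was higher in the almost fully methylated regions with 5 to 9 positions and lower in those with 10 or more. By depth, it fell from 0.451 in the shallowest class to 0.246 in the deepest, against 0.429 and 0.238 in the comparison regions. In points the almost fully methylated regions had the lower SD in each of the 4 classes, 1.84 against 4.03 in the shallowest and 0.989 against 2.25 in the deepest. With the added counts removed the logit SD was 0.420 against 0.335.

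**Figure D2:**
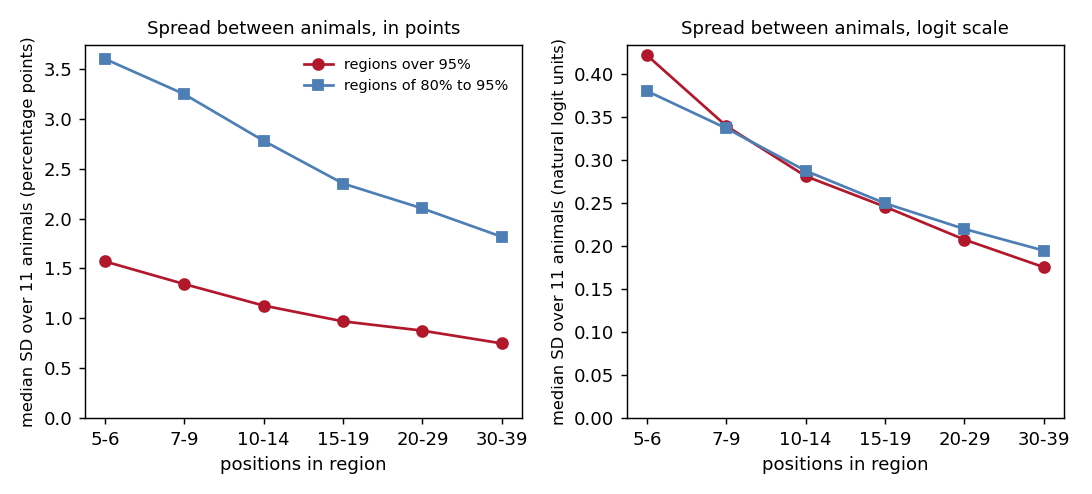
Median SD over 11 animals (y axes) by number of positions in the region (x axes), in percentage points on the left and in natural logit units on the right, for regions over 95% and for comparison regions of the same size. In points the regions over 95% are lower in each class, and on the logit scale the lines cross between the classes of 7 to 9 and 10 to 14 positions.

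The steadiest regions were long. On chromosome 4 from 143882387 to 143883337, 31 positions had levels from 95.4% to 96.2% in the 11 animals, a range of 0.782 points. On chromosome 11 from 132474451 to 132475425, 34 positions ran from 95.8% to 96.7%. On the same chromosome from 96053786 to 96054585, 36 positions ran from 94.7% to 95.6%. Each had at least 5960 reads, summed over its positions, in every animal.

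The regions with the largest ranges had 1 or 2 animals far below the rest. On chromosome 11 from 124969728 to 124969855, 5 positions stood at 75.4% in animal 1 of cohort 10 and at 97.7% in animal 2. Cohort 14 ran from 94.2% to 98.9% there. Without the 2 positions that were under 80% in animal 1 alone, that animal was at 96.5%. On chromosome 3 from 43983258 to 43983517, 7 positions stood at 79.9% in animal 4 of cohort 14 and between 95.8% and 98.4% in the other 10. Here 1 position was at 11.95% in animal 4 and over 80% in every other animal, and without it animal 4 was at 96.6%. On chromosome 4 from 137498806 to 137498903, 5 positions stood at 75.9% in animal 6 of cohort 14, from 195 reads summed over them. Without the 3 positions that were under 80% in that animal alone, it was at 88%. Animal 2 of cohort 10 was next at 89.7%, and the others lay at 93.7% or above. On the same chromosome from 152280488 to 152280635, 12 positions stood at 80% in animal 8 of cohort 14, where 1 position was at 2.63%. Animal 1 of cohort 10 had 89.03% there, and all others at least 92.9%. On chromosome 12 from 48351605 to 48351926, 5 positions stood at 81.3% in animal 6 and 82.8% in animal 4 of cohort 14, and at 95.8% or more in every other animal.

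Single positions low in 1 animal were counted in all regions. At 304 positions, 0.904% of those in the regions, 1 animal was under 60% and every other over 85%. The share was 0.836% in the comparison regions. The low animal was between 40% and 60% at 266 of the 304, with a median of 51.0%, between 20% and 40% at 33, and under 20% at 5. Each animal had between 17, in animal 1 of cohort 14, and 35, in animal 7 of cohort 14. They fell in 281 regions, 8.62%, and in 72 of the 260 regions with an animal under 90%. Without them the median SD was 1.29 points, against 2.996 in the comparison regions.

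The almost fully methylated regions lay on all 20 chromosomes. They made up 1.86% of regions of this size on chromosome 20, 2.04% on chromosome 16, 2.10% on chromosome 19 and 2.11% on chromosome 10. At the other end stood chromosome 2 with 3.46% and chromosome 17 with 3.24%. Among regions of 80% to 100%, the share ran from 3.86% on chromosome 20 to 7.20% on chromosome 2. Within 2 Mb of the outermost measured position of a chromosome lay 10.3% of them, against 13.0% of comparison regions, and within 10 Mb 29.9% against 36.8%. A region under 20% lay within 2000 bp of 5.77%, against 8.22%, and within 10000 bp of 23.4%, against 28.4%.

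Regions over 95% clustered along the chromosomes. For each of them, the neighbouring regions of 5 to 39 positions were counted by the gap between the 2 regions. Of 1329 neighbours at most 1000 bp away, 144 (10.8%) were over 95% too, against 3.32% of the neighbours of comparison regions. The share was 6.14% against 2.97% at 1 to 2 kb, 5.65% against 2.71% at 5 to 10 kb, 3.46% against 2.51% at 30 to 100 kb, and 2.47% against 2.35% at 300 kb to 1 Mb. The ratio of the 2 shares was 3.16 up to 500 bp, 3.39 from there to 1000 bp, between 1.75 and 2.08 in the classes from 2 to 10 kb, and 1.05 in the last class. Neighbours share libraries and local depth, each close pair is counted from both sides, and no test is given. The 187 regions over 95% that were cut from longer runs can also have pieces of the same run among their closest neighbours. How much this adds was not tested.

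**Figure D3:**
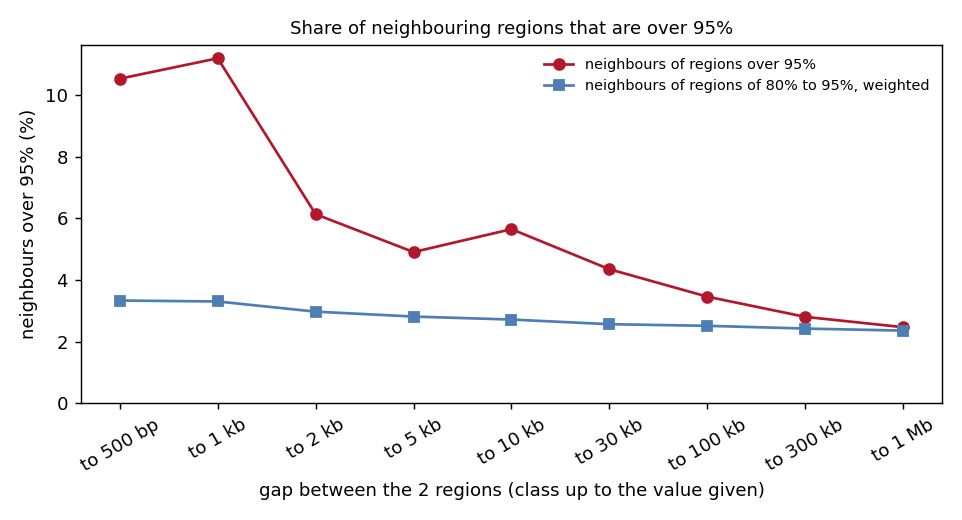
Share of neighbouring regions that are over 95% (y axis, %) by the gap between the regions (x axis, classes up to 1 Mb), for neighbours of regions over 95% and of comparison regions. The upper line falls from 10.5% in the class up to 500 bp to 2.47% in the class up to 1 Mb, where the lines nearly meet.

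Most regions nevertheless stood alone. The nearest other region over 95% was a median of 114005 bp away, and 468 (14.4%) had one within 10 kb. Chains were formed of consecutive regions at most 10 kb apart with all of them over 95%. There were 107 chains of 2, 10 of 3 and 1 longer, which together held 249 regions (7.64%). The longest held 5 regions on chromosome 12 from 65660544 to 65669348, with 16, 32, 8, 5 and 17 positions and pooled levels of 95.5%, 96.3%, 96.5%, 96.8% and 95.4%. The lowest animal in any of the 5 was at 94.02% and the highest at 99.2%. The next were 3 regions on chromosome 14 from 114212170 to 114224891, with lowest animals at 92.1% to 94.5%, and 3 on chromosome 2 from 108350965 to 108363474, with lowest animals at 93.7% to 94.5%.

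**Figure D4:**
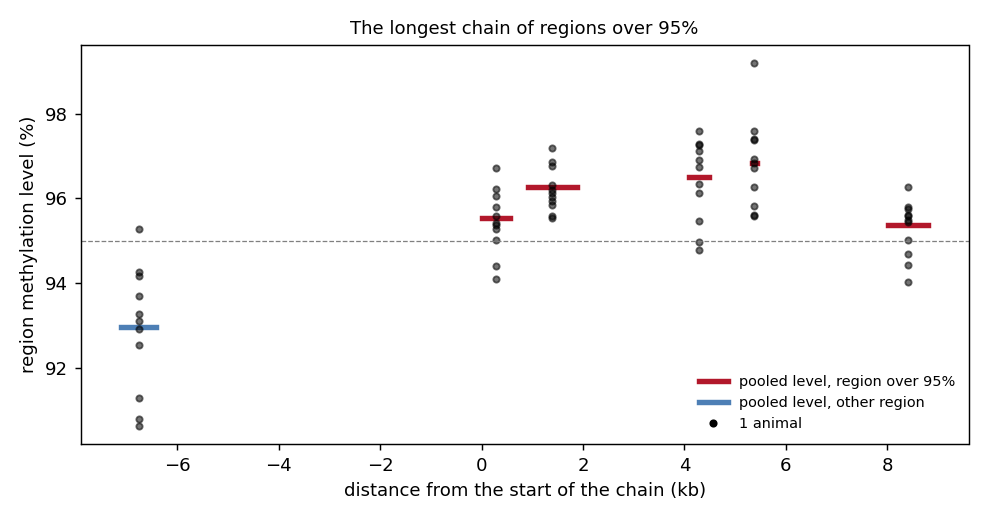
Level (y axis, %) of the 5 regions in the longest chain of regions over 95% and of other regions with 5 to 39 positions within 10 kb of it, by distance from the start of the chain (x axis, kb). Bars span each region at its pooled level, points are the 11 animals, and the dashed line marks 95%; the 1 other region, about 7 kb before the chain, has a pooled level of 93.0%.

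In windows of 1 Mb, 1391 of 2646 with a measured region held at least 1 region over 95%, and 137 held 5 or more. The most, 20 each, lay on chromosome 11 from 132000000 to 132999999 and on chromosome 3 from 35000000 to 35999999, followed by 18 on chromosome 9 from 133000000 to 133999999. These windows were also rich in measured regions, with 338, 360 and 432. The almost fully methylated share was 5.92%, 5.56% and 4.17% there, against 2.73% over all. The second-steadiest region named above, with 34 positions, lies in the first of these windows.

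Flanking methylation was lower at larger distances within 2000 bp, where the regions with listed positions differ by distance. Positions outside a region and within 2000 bp of it were listed for 2252 of the 3260. Their mean level, averaged over regions, was 79.3% ± 0.376 (SD, n = 11), against 73.7% ± 0.452 around the comparison regions. The difference was 5.55 ± 0.112 points, and it was above 0 in 11 of 11 animals, from 5.38 to 5.78. By distance, the flanks were at 85.9% against 79.2% beyond 200 and up to 500 bp, 81.1% against 74.8% from there to 1000 bp, and 74.7% against 70.4% from there to 2000 bp. Within 200 bp, where only the 187 regions cut from a longer run have listed neighbours, the levels were 91.2% against 82.0%. Flanking positions were not used by the rule but are correlated with those that were, so the difference is a description. Leaving out flanking positions that belong to other regions over 95%, it was 5.16 ± 0.114 points and above 0 in 11 animals.

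**Figure D5:**
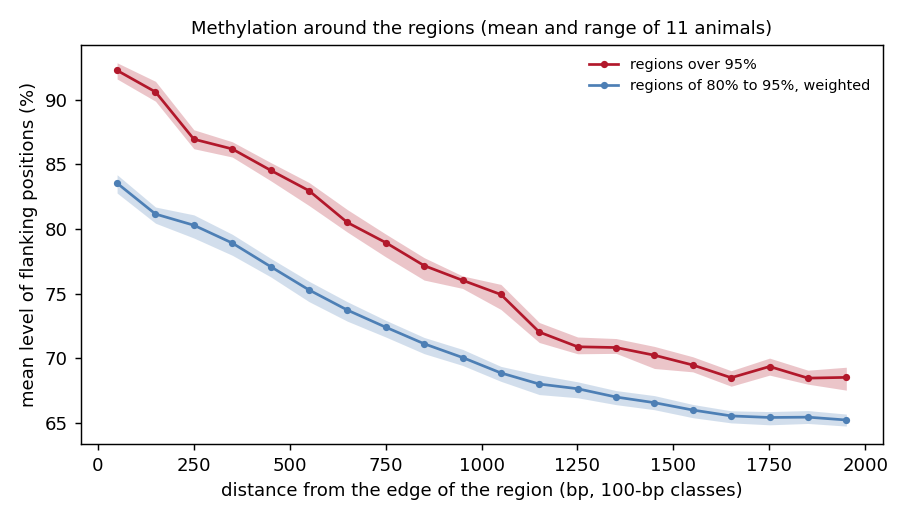
Mean level of flanking positions (y axis, %) by distance from the edge of the region in classes of 100 bp (x axis), around regions over 95% and around comparison regions; lines are means of 11 animals and bands run from the lowest to the highest animal. Around regions over 95% the mean is 92.3% in the first class and 68.5% in the last, and the bands of the 2 sets do not overlap in any class. The classes hold different regions, 147 of those over 95% in the first and 710 in the last.

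The flanks were not uniform. In 36.8% of the regions with flanking positions the flank was over 90%, against 20.7% of comparison regions. In 10.1% it was under 50%, against 14.7%, and in 5.28% under 20%, against 6.92%. Among regions with at least 5 flanking positions, the lowest flank belonged to 5 positions on chromosome 14 from 114696615 to 114696669. They had a pooled level of 95.2%, while the 26 listed positions within 2000 bp had a mean of 2.26%, the nearest of them 1363 bp away. On chromosome 11 from 120086105 to 120086685, 24 positions at 95.5% had a flank of 11 positions at 2.34%. On chromosome 19 from 38644867 to 38645161, chromosome 2 from 1058305 to 1058445 and chromosome 4 from 66208593 to 66208795, flanks of 18, 61 and 48 positions had means of 2.77% to 2.92%. In the last of these, the nearest listed position was 487 bp from the region and at 4.17%, and the region itself ran from 92.7% to 97.5% in the 11 animals. In these 5 regions the lowest value of any animal was 91.9%.

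No almost fully methylated region was related to intake at the threshold. Methylated and unmethylated counts of all 140730 regions with at least 5 positions were fitted by a moderated quasi-binomial logistic regression on intake with cohort as a covariate. Of the 3260 regions, 0 had an adjusted p under 0.05 (Benjamini-Hochberg over all 140730), and 0% of all regions passed. An unadjusted p under 0.05 was found for 42 of them (1.29%), against 3.13% of all regions tested. In simulated counts with no region related to intake, the same fit gave 2.85% of the regions over 95% and 5.25% of all regions. The shares in the data were below the simulated ones, in these regions and over all regions, and the cause was not tested. Of the 42, 27 had a positive slope and 15 a negative one. Among all regions there were 2890 (2.05% of those tested) with a positive slope and 1520 (1.08%) with a negative one. Limma on logit methylation gave 0 and 141 (4.33%), against 3.63% of all regions. Slopes of the level in points came from a separate least-squares fit on intake and cohort. Their median standard error was 0.553 percentage points per unit of intake. In 63.3% of the regions the 95% interval stayed between 2 points below and 2 points above 0. Slopes in points ran from -0.966 at the 5th percentile to 1.14 at the 95th.

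In the regions with the smallest p, an animal at an end of the intake range was the lowest. The smallest p, 0.00137 unadjusted and 0.99996 after Benjamini-Hochberg adjustment in the quasi-binomial fit, belonged to 6 positions on chromosome 14 between 32845988 and 32846259. Animal 4 of cohort 14, which has the lowest intake, stood at 84.6%, animal 2 of the same cohort at 91.3%, and the other 9 at 93.6% to 98.9%. The next for a positive slope was the region on chromosome 3 from 43983258 already described, where 1 position of animal 4 was low. The third was 15 positions on chromosome 11 from 42031646 to 42031884, where animal 4 had 90.1% and the rest lay between 94.9% and 97.8%. For a negative slope, 13 positions on chromosome 14 from 66898135 to 66898371 came first, where animal 9 of cohort 14, which has the highest intake, had 82.9% and the rest 94.8% to 98.5%. Next came 16 positions on chromosome 15 from 78735715 to 78736271, where animal 9 had 88.6% and the rest 93.4% to 97.8%. The third were 13 on chromosome 3 from 41075304 to 41075670, where animal 9 had 92.7% and the rest 93.5% to 97.1%. None of the 6 passed the threshold. Without animal 4, the logit slopes per unit of intake of the 3 regions with a positive slope went from 0.981 to 0.612, from 1.02 to 0.250 and from 0.516 to 0.208, in the order given. Without animal 9, the slope of the first region with a negative slope went from -1.18 to -0.00438 and that of the second from -0.508 to -0.191, while the third moved from -0.387 to -0.383. Limma on logit methylation gave 0.650 for the first positive and -0.513 for the first negative region.

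Cohorts 10 and 14 did not differ in any of the regions at the threshold, but cohort 10 has only 2 animals. By least squares the difference between cohorts had a median standard error of 1.03 points. Its 95% interval stayed between 2 points below and 2 points above 0 in 16.6% of the regions. In the same quasi-binomial fit 0 of 3260 had an adjusted p under 0.05, and 0% of all regions did. An unadjusted p under 0.05 was found for 43 (1.32%), against 3.17% of all regions. Limma on logit methylation gave 0 and 174 (5.34%), against 4.99% of all regions. Of the 43, 42 were higher in cohort 14 and 1 was higher in cohort 10. Among all regions with an unadjusted p under 0.05, 3342 (2.37% of those tested) were higher in cohort 14. In the other direction there were 1122 (0.797% of those tested). The fitted difference was above 0, meaning higher in cohort 14, in 64.4% of the 3260 and in 56.3% of all regions. With the added counts removed, the share of 64.4% became 54.5%, of the 5733 regions then chosen. Without animal 1 of cohort 10 it was 55.5%, and without animal 2 of that cohort 65.6%. Leaving out each animal of cohort 14 in turn gave 62.7% to 66.5%, and limma on logit methylation gave 67.9%. The 2 libraries of cohort 10 were also the shallowest in these regions, and the part of depth in the share of 64.4% was not tested. The 2 animals of cohort 10 are also the youngest of the 11, and a difference by cohort cannot be told apart from one by age.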

How the data were processed

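As deposited by the authors, a pair of tables holds whole-number counts of reads, methylated in one and all reads in the other, for each CpG position in each library. The submitters' processing notes name FastQC and Bismark. Their versions, filters and the build are not stated in these sources. Columns were matched to animals by library name, and 5 further columns that matched no sample were not used. Totals summed over all positions ran from 479979855 to 934657900 per library, so a read covering several positions is counted at each. The lowest total at any position was 12. Copies made by PCR cannot be told from separate molecules, so depth overstates precision. Replicates are single animals, numbered in the order of deposit.

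Regions were formed as described above. For comparison, regions of 80% to 95% were weighted so that each number of positions had the same share as among regions over 95%; medians and means over them carry these weights. SDs in points are over the 11 animals. The logistic fit used a dispersion shrunk over regions with limma and two-sided tests. In a simulation over 140730 regions in which 200 regions over 95% were related to intake, 50 at each slope, 0%, 4%, 56% and 88% were called at logit slopes of 0.25, 0.5, 1 and 1.5 per unit, with 6 unchanged regions called. Without change, 0 regions were called, and an unadjusted p under 0.05 was found for 2.85% of regions over 95% and 5.25% of all regions. In the data these shares were 1.29% and 3.13%, so the simulated counts differ from the real ones. The shares called at each slope may therefore not hold for the real counts. The cohort term was not simulated.

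The regions, lists and tests were chosen with earlier results of these data known. Named regions followed a rule on level, size, range, flank, clustering and intake p. Alternatives were the added counts removed, other limits and depths, animals left out and limma on logits. The work was done in R 4.3.3 with limma 3.58.1 and in Python 3.11.15 with pandas 2.3.3, scipy 1.17.1 and numpy 2.4.6.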

Additional observations from a re-analysis of the deposited data

Results flagged for a closer look

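Over the 9 animals of cohort 14, 10 of 49 sets of values held an animal far from the others, with a gap to the next animal that was large against the whole range. Chance gives about 1 in 20 for unselected values; several of these regions were named for a large range or a small p. In each the animal was the lowest. Animal 6 was at 95.8% on chromosome 3 from 13000014 (others 97.5% to 98.9%), at 92.3% on chromosome 12 from 49191 (others 94.97% to 96.3%), at 94.2% on chromosome 11 from 124969728 (others 96.7% to 98.9%) and at 75.9% on chromosome 4 from 137498806 (others 95.4% to 97.4%). On chromosome 12 from 49191, 4 positions were under 80% in animal 6 alone, and without them its level was 95.9%.

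Animal 4 was at 89.3% on chromosome 16 from 50242907 (others 94.3% to 98.1%), at 79.9% on chromosome 3 from 43983258 (others 96.2% to 98.4%) and at 90.1% on chromosome 11 from 42031646 (others 94.9% to 97.8%). Animal 8 was at 80% on chromosome 4 from 152280488 (others 92.9% to 98.5%). Animal 9 was at 82.9% on chromosome 14 from 66898135 (others 96.5% to 98.5%) and at 88.6% on chromosome 15 from 78735715 (others 93.4% to 97.8%).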

How the results depend on the processing

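With the added counts removed, 5733 regions lay over 95%, with a share of close neighbours of 15.2% (5.82% for comparison regions) and a flank difference of 5.40 points. A limit of 96% gave 1000 regions, a neighbour share of 5.43% (0.853%), a flank difference of 5.29 and a difference in SD between animals of -2.01 points; a limit of 94% gave 7173, 18.0% (7.50%) and 5.05. Regions of 10 to 39 positions numbered 1200, with 14.4% (2.38%), 6.05 and -1.43. With at least 50 reads in every animal, the neighbour share was 15% (4.43%), the flank difference 6.28, the SD difference -1.50 and the density difference 1.16 positions per 100 bp. The flank difference was 5.32 in cohort 14 alone, 5.33 when positions were joined up to 100 bp apart, 5.16 with flanking positions of other regions over 95% left out (chosen after seeing the data), and 5.22 to 5.73 with each animal left out in turn. Without animals 3, 6, 7 and 8 of cohort 14, which had the most counts at the lowest value, it was 5.18 and the SD difference -1.54. Leaving out each animal gave 3154 to 3409 regions, neighbour shares of 10.1% to 11.97% and SD differences of -1.73 to -1.64. The differences in neighbour share, flank level, SD in points and density kept their direction in these alternatives. The median logit SD did not: with 10 to 39 positions it was 0.248 against 0.254 in the comparison regions. The cause of these shifts was not tested. In every alternative fit run, limma included, 0 of the regions were called for intake or cohort. No paired analysis was possible because replicate numbers only name the animals here and pair none of them. Depth limits the highest level a shallow region can show.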
